A study of Mus musculus with 6 samples.

Results

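The baseline transcriptome of the mouse adrenal medulla was read from the 3 arrays of sham-operated animals, out of 6 arrays in the series; the other 3 arrays, from animals with transverse aortic constriction, were not used. The 3 mice were male C57/Bl6 animals, taken 8 weeks after the sham operation, and their age is not given in the labels. Each Affymetrix mouse genome array, which reads most known genes of the mouse, held amplified RNA of both medullae of 1 animal, dissected from 12 µm frozen sections, so the arrays are separate animals and are called sham 1, sham 2 and sham 3. The animals had undergone surgery and are not untouched mice, and the dissected tissue can hold cortex, vessel, nerve and connective tissue beside the medulla. All values describe 1 group, so no test was run, and errors are the SD over the 3 animals.

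The adrenal medulla is the hormone gland inside the adrenal cortex. Its chromaffin cells, relatives of sympathetic neurons that arise from the neural crest, make dopamine, noradrenaline and adrenaline from tyrosine and pack them with granin proteins and peptides into acidic dense-core granules. Acetylcholine from splanchnic nerve endings depolarises the cells, calcium enters through voltage-gated channels, and the granules fuse with the cell membrane and release their content into the blood.

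The arrays gave values for 18193 named genes. A level is the log2 of the deposited intensity of a probe set, a group of short probes that reads one gene, and a gene with several probe sets is given by the one with the highest sham mean. A level of log2 4 was used as the floor; a gene under it is called below the floor, which does not show that its transcript was absent. Signal also depends on how well the probes of a set bind, so a rank orders signals and not numbers of transcripts.

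Of the 18193 genes, 9270 (51.0%) were at the floor or above on all 3 arrays, 799 on 2 arrays, 725 on 1 array and 7399 (40.7%) on none. These shares are the background for every gene group below. Between 9934 genes (sham 1) and 10148 genes (sham 3) reached the floor per array, with 10051 in sham 2. By mean level, 8050 genes lay under log2 4, 3054 from 4 to 6, 3332 from 6 to 8, 2450 from 8 to 10, 1000 from 10 to 12, 290 from 12 to 14 and 17 at 14 or more. The 10 highest genes held 4.08% ± 0.69 (SD, n = 3) of the summed intensity, the 50 highest 13.1% ± 1.47 and the 500 highest 49.4% ± 2.42. Signal was spread over many genes and was not held by a handful of hormone genes. The SD between animals was widest in the middle of the range, with a median of 0.52 for genes from 6 to 8, with 0.21 for the 17 highest genes and 0.09 for genes under log2 4.

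**Figure D1:**
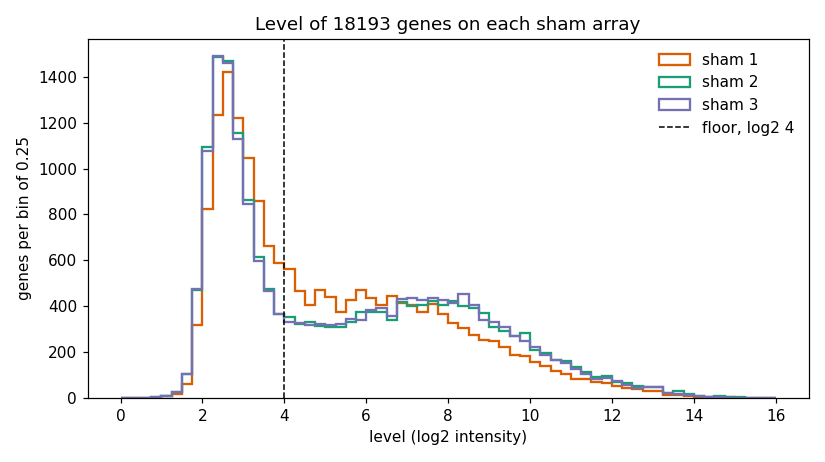
Distribution of gene levels in sham adrenal medulla. The x axis gives the log2 intensity and the y axis the number of the 18193 genes per bin of 0.25, with an outline for each of the 3 arrays and a dashed line at the floor of log2 4; all 3 outlines peak under the floor, and sham 1 has more genes just above the floor and fewer above 8 than the others.

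Sham 1 stood apart from the other 2 arrays. Across the 9270 genes at the floor, levels in sham 2 and sham 3 differed by less than 1 log2 unit for 98.3%, against 64.4% for sham 2 and sham 1 and 66.1% for sham 3 and sham 1. Pearson's r across these genes was 0.98 between sham 2 and sham 3, and 0.91 and 0.90 against sham 1; genes are not independent replicates, and no p is given. Over the 10794 genes at the floor on at least 1 array, the median difference was 0.55 for sham 2 over sham 1 and 0.54 for sham 3 over sham 1, and lower values of sham 1 are to be read against this shift. In sham 1 the 3′ control probe set of Gapdh exceeded its 5′ one by 5.15, against 3.08 in sham 2 and 2.88 in sham 3, and that of Actb by 7.93 against 3.31 and 3.93, a difference that is larger where the measured RNA is shorter. The part of RNA length in the lower values of sham 1 was not tested. A list of steroid-producing enzymes of the adrenal cortex was highest in sham 3 and is described with the other cell types.

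The label adrenal medulla was met by its defining markers, all 5 of which were at the floor on every array. The level of Chgb was 15.03, 14.91 and 14.63 in sham 1, sham 2 and sham 3, that of Chga 14.39, 14.18 and 13.97, and that of Pnmt 14.07, 14.27 and 14.05. Th measured 13.12, 13.74 and 13.40, and Dbh measured 12.71, 12.42 and 12.20. Chgb, Chga, Pnmt and Th ranked among the 100 highest of the 18193 genes, at rank 2, 13, 16 and 52, and Dbh was at rank 201.

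The top of the ranking mixed the secretory products of chromaffin cells with genes that every cell uses. Rps29, a ribosomal protein, was the highest gene at 15.08 ± 0.13 (SD, n = 3), followed by chromogranin B (Chgb) at 14.86 ± 0.21, the ribosomal protein Rps20 at 14.70 ± 0.07, the constitutive chaperone Hspa8 at 14.66 ± 0.14 and the chromatin protein Hmgn1 at 14.64. Among the 40 highest genes, chromaffin products were Chgb, Chga, Pnmt, neuropeptide Y (Npy, 13.97 ± 0.16), secretogranin II (Scg2, 13.88 ± 0.60), cytochrome b561 of the granule membrane (Cyb561, 13.64 ± 0.31) and the biopterin-recycling enzyme Qdpr (13.84 ± 0.09). Subunits of the granule's proton pump stood beside them, with Atp6ap2 at 14.45 ± 0.25 and Atp6v1g1 at 13.87 ± 0.11. Necdin (Ndn, 14.34 ± 0.30) and the long noncoding RNA Meg3 (14.16 ± 0.59), both expressed from 1 parental allele, were in the same range, as was the neural adaptor Bex1 (14.26).

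The order within this top range was not resolved by 3 animals. The 50 highest genes spanned means of 13.43 to 15.08, and the gap to the next gene was larger than the bigger of both SDs for only 1 of the 49 neighbouring pairs, with 0.22 as the widest gap. Their median SD was 0.24. All 50 genes were within the 100 highest on each of the 3 arrays, but they were picked by the mean of these same arrays. Without sham 1, 42 of the 50 stayed among the 50 highest.

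Which genes ranked highest also followed the design of the probe sets. Of the 50 highest genes, 23 were read by a probe set whose name ends in _x_at, in which some probes resemble other genes, 17 by one ending in _a_at, which reads several transcripts of one gene, 1 by one ending in _s_at, which is shared by transcripts of different genes, and 9 by one without such a suffix. Over all genes, 21.4% were read by a suffixed probe set, and 29.8% of genes at the floor. Signals of ribosomal proteins and of Hmgn1, families with many near-identical copies, are therefore uncertain. Other probe sets of the same gene could be far lower: Hmgn1 went down to 2.38, the second probe set of Rps9 was at 9.01 against 14.29 for the first, and that of Wdr6 at 9.62 against 14.06. Across the 6270 genes at the floor with several probe sets, the highest and the lowest set differed by a median of 4.29, and for 4630 of them the lowest set was below the floor.

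With all suffixed probe sets left out, the ranking was led by secretory genes. The 6 highest genes were then Chgb (14.86), Chga (14.18), Pnmt (14.13), the translation elongation factor Eef1a1 (13.98), Npy (13.97) and Scg2 (13.88). The transcription factor E2f5 (13.74), the matrix protein Efemp1 (13.70), Cyb561 (13.64) and Ndn (13.62) followed, with Th at 13.42 and carboxypeptidase E (Cpe) at 13.18. E2f5 rested on 1 of its probe sets, as its second was at 6.72. Of the 50 highest genes of the full ranking, 12 stayed among the 50 highest here.

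**Figure D2:**
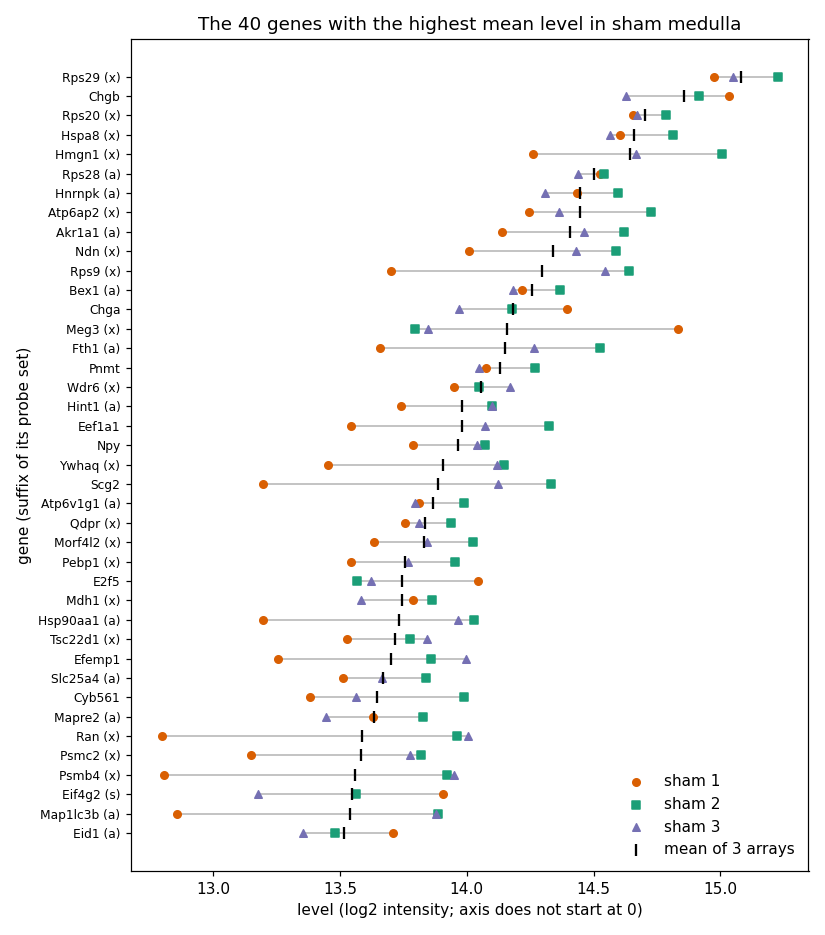
Levels of the 40 highest genes that are not clone or predicted names. Each row is a gene, with the suffix of its probe set in brackets; the markers are its log2 intensity in sham 1, sham 2 and sham 3, the tick is their mean, and the x axis does not start at 0. The ranges of neighbouring rows mostly overlap, and Chgb, Chga, Pnmt, Npy and Scg2 lie among ribosomal and chaperone genes.

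The catecholamine pathway was measured almost complete and near the top of the range. Of 11 genes of catecholamine synthesis and its cofactor, 10 were at the floor on all 3 arrays (background 51.0%), with a median level of 12.45 against 4.67 for all 18193 genes. Tyrosine hydroxylase (Th), which makes L-DOPA in the rate-limiting step, had a mean of 13.42 ± 0.31 (SD, n = 3). Ddc, which turns L-DOPA into dopamine, measured 11.47, 13.67 and 13.52. Sham 1 was the low array for Ddc by over 2 log2 units, far beyond the general shift, while Th lay in a narrow range. Dopamine beta-hydroxylase (Dbh), which makes noradrenaline inside the granule, had a mean of 12.45 ± 0.26, and its other probe sets were at 12.09 and 10.12. Pnmt, which methylates noradrenaline to adrenaline, had the highest mean of the pathway (14.13 ± 0.12) and the smallest spread but that of Qdpr and Gchfr. Its other probe sets were at 12.80 and below the floor.

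The enzymes of tetrahydrobiopterin, the cofactor of tyrosine hydroxylase, spanned a wider range. Qdpr, which regenerates the cofactor, was at 13.84, but on a probe set ending in _x_at, and at 9.93 on its best set without a suffix. Gch1, the first enzyme of cofactor synthesis, measured 10.14, 10.98 and 10.89, and Pcbd1, which takes part in its recycling, 9.96, 10.95 and 10.22. The later steps of synthesis were lower, with Pts at 7.40 ± 0.36 and Spr at 4.93, 7.27 and 6.95. Gchfr, the feedback protein of Gch1, was the only member below the floor, at 2.78 ± 0.01. Cyb561, which passes electrons into the granule to renew the ascorbate that Dbh uses, measured 13.38, 13.99 and 13.56.

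Transporters and breakdown enzymes had a median of 9.98. Both vesicular monoamine transporters, which load the granules, were above 9 on every array, Slc18a1 at 10.29 ± 0.49 and Slc18a2 at 10.15, 10.99 and 10.27. The noradrenaline transporter Slc6a2, which takes the amine back up, measured 9.04, 10.32 and 10.57. Monoamine oxidase B (Maob), which degrades amines, measured 9.57, 11.40 and 11.35, and monoamine oxidase A (Maoa) 6.23, 7.89 and 8.09, and both were lowest in sham 1. Of the 7 genes measured in this list of 10, 6 were at the floor on all 3 arrays and Sult1a1 on 1.

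Granins, the acidic proteins that condense the granule core, formed a graded series. Of 15 granins and granule proteins, 12 were at the floor on all 3 arrays, with a median of 10.46. Scg2 measured 13.20, 14.33 and 14.12, Resp18 11.70, 13.17 and 13.12, Scg3 11.02, 11.63 and 11.46, and Scg5, which escorts a prohormone convertase, 9.53, 10.95 and 11.06. For these 4 genes sham 1 was the lowest array, while for Chga and Chgb it was the highest. The granule phosphatase-like proteins Ptprn2 (10.67 ± 0.99) and Ptprn (8.43 ± 0.52), Pcsk1n (10.21 ± 0.21), an inhibitor of prohormone convertase, and Vgf (8.36, 7.65 and 7.18), a peptide precursor, followed. Of the vesicle glycoproteins, Sv2a was at 7.65 ± 0.23, and Sv2b (2.28) and Sv2c (1.95) were below the floor on every array, as was Cartpt (3.48 ± 0.32).

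Prohormone processing enzymes were mostly measured above the floor. Cpe, which trims basic residues, measured 12.52, 13.56 and 13.46, and the prohormone convertase Pcsk1 8.46, 9.50 and 9.69. Pam, which amidates peptides, was at 6.48 ± 0.70, Furin at 4.65 ± 0.36, and the protease cathepsin L (Ctsl) at 11.77 ± 0.99. Of 8 measured genes of this list of 9, 7 were at the floor on all 3 arrays and Qpct (3.96, 7.10 and 6.88) in sham 2 and sham 3 only. Pcsk2 was not analysed here.

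Only a few peptide hormones accompanied the catecholamines. Of 24 measured neuropeptides and hormones, 5 were at the floor on all 3 arrays (20.8%, background 51.0%), 3 on some, and 16 on none. Npy, a vasoconstrictor cotransmitter, measured 13.79, 14.07 and 14.04 and was the highest, followed by adrenomedullin (Adm, 11.53, 11.75 and 11.49), galanin (Gal, 8.69, 9.65 and 9.51), proenkephalin (Penk, 5.75, 7.38 and 6.58) and apelin (Apln, 4.71 ± 0.01). Npy varied little between animals, and Gal and Penk were lowest in sham 1. Vip (3.81, 6.54 and 4.95) and Pomc (3.96, 4.62 and 5.02) crossed the floor in sham 2 and sham 3 only, and Stc1 (4.75, 3.27 and 3.11) in sham 1 only. Tac1, Pdyn, Sst, Cck, Adcyap1, Nts, Crh and Nppa were among those below the floor on all 3 arrays, with means from 1.65 (Sst) to 3.38 (Tac1).

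**Figure D3:**
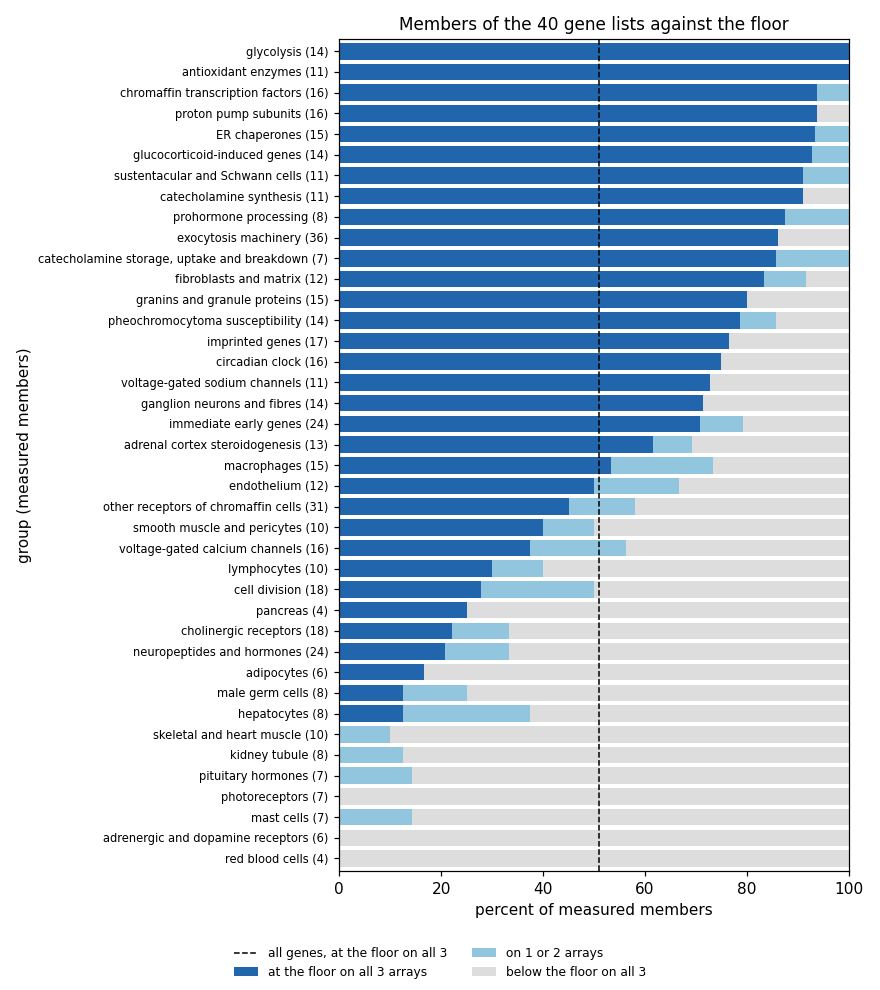
Members of the 40 gene lists against the floor. Each bar gives the percent of a list's measured genes (their number is in brackets) at log2 4 or more on all 3 sham arrays, on 1 or 2 and on none, and the dashed line is the 51.0% of all genes; catecholamine synthesis (10 of 11) lies well to the right of the line and neuropeptides (5 of 24) to its left.

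Several genes of this machinery carry a full cAMP response element, the palindrome TGACGTCA that binds the factor CREB downstream of protein kinase A, in the promoter window of RefSeq GRCm38.p6 (250 bases before to 50 after the gene's start). Of the 32 genes of the synthesis, storage, granin and processing lists with a window, 6 (18.8%) held it, against 422 of 14452 measured genes (2.92%) and 588 of 32851 windows in all (1.79%). The stretches around it are shown, 5′ to 3′ on the gene's strand, because they allow the sites of genes at different levels to be compared; capitals mark the element. They lie at chr7:142900003-142900070 for Th (minus strand), chr2:132781540-132781607 for Chgb (plus), chr1:79440057-79440124 for Scg2 (minus), chr13:75089749-75089816 for Pcsk1 (plus), chr19:59260844-59260911 for Slc18a2 (plus) and chr13:99900758-99900825 for Cartpt (minus).
Th: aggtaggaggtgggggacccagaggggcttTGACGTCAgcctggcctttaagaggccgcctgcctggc
Chgb: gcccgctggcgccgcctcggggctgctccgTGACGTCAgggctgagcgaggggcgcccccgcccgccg
Scg2: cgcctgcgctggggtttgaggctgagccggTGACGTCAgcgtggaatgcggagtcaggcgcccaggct
Pcsk1: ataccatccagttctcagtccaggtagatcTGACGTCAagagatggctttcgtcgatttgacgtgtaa
Slc18a2: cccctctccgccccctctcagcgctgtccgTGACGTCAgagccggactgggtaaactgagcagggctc
Cartpt: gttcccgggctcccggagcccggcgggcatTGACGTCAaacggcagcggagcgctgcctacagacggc

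Relative to the annotated start, the element began at -45 in Th, -68 in Scg2, -72 in Chgb, -78 in Pcsk1, -112 in Cartpt and -4 in Slc18a2. The genes holding it were not uniform in level: Chgb, Scg2 and Th were above 13, Slc18a2 (10.47 ± 0.46) and Pcsk1 (9.21 ± 0.67) were in the middle, and Cartpt was below the floor at 3.48 ± 0.32. A gene counted as holding the element if any of its windows did, so shares of genes are not on one scale with the share of windows. Of 7533 genes with a window at the floor on all 3 arrays, 3.76% held the element. Of 5701 genes with a window below the floor on all 3, 1.82% did. Genes at the floor on all 3 arrays also held more CG dinucleotides in their richest window, with a median of 23 against 8, and 16 in the secretory genes. The element was chosen from 6 motifs searched on both strands after their counts were seen. The others were in 6 secretory genes for TATAAA (18.8% against 11.5% of measured genes), 2 for TGACTCA (6.25% against 5.34%), 0 for GCGTGGGCG (measured genes 1.17%), 2 for TTCAGCACC (6.25% against 0.49%) and 8 for CAGGTG (25.0% against 22.9%). A match gives the letters in these windows and says nothing of binding in this tissue.

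Granules are acidified by the vacuolar proton pump, whose gradient drives amine uptake. Of 16 measured subunits, 15 were at the floor on all 3 arrays, with a median of 10.94, and 2 were among the 100 highest genes. After Atp6ap2 and Atp6v1g1, the next were Atp6v1d (12.25 ± 0.11), Atp6v1c1 (11.83 ± 0.71) and Atp6ap1 (11.75 ± 0.45). Of this list, Atp6v1g2 alone was below the floor (3.60 ± 0.24), although its paralog Atp6v1g1 was among the 40 highest. The rank of Atp6v1g1 rested on 1 probe set, as its others were at 8.32 and, below the floor, at 3.90. Over all 22 measured genes of the pump's family, which include isoforms known from other tissues, 16 were at the floor on all 3 arrays and 6 on none (72.7%, background 51.0%).

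The exocytosis machinery was broadly measured. Of 36 measured genes, 31 were at the floor on all 3 arrays and 5 on none, with a median of 8.19. The SNARE proteins that drive fusion included Snap25 (10.64, 11.95 and 11.56), Vamp2 (9.40, 9.86 and 9.92), Vamp3 (12.07 ± 0.32) and Stx1a (8.00, 7.35 and 7.72). Snap25 was lowest in sham 1, whereas Stx1a was highest there. The small GTPases of granule docking were led by Rab3c (11.58 ± 0.86) and Rab3a (10.86 ± 0.04), and the priming factor Cadps was at 10.53 ± 0.91. Synaptotagmins, the calcium sensors of release, split into 8 of 16 at the floor on all 3 arrays and 8 on none. Their share at the floor was close to the background of 51.0%, so the family did not stand out from all genes by this count. Syt4 (11.97 ± 0.17) and Syt7 (11.84 ± 0.18) gave the highest signals, followed by Syt1 (10.48 ± 0.46) and Syt17 (9.74 ± 0.32). Of the wider families, 7 of 7 VAMP proteins, 12 of 14 syntaxins and 44 of 59 Rab GTPases were at the floor on all 3 arrays.

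Transcription factors of the chromaffin lineage were nearly all measured above the floor. Of 16, 15 were at the floor on all 3 arrays, with a median of 10.20. Insm1, a zinc finger factor of neuroendocrine differentiation, was the highest at 12.54, 12.23 and 12.83. Hand2, a helix-loop-helix factor of sympathetic development, measured 11.51, 11.17 and 11.23, while its paralog Hand1 lay at the floor itself, at 4.25, 3.93 and 4.22. Tbx20 (11.70 ± 0.24), the hypoxia factor Epas1 (11.38 ± 0.46), Tfap2b (10.84 ± 0.19), Isl1 (10.53 ± 0.30), Gata2 (9.87 ± 0.46), Phox2a (9.84 ± 0.74) and Gata3 (9.73 ± 0.19) followed. In the Gata family the split was complete: Gata2 and Gata3 were above 9 on all 3 arrays, and Gata1, Gata4, Gata5 and Gata6 were below the floor on all 3.

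Receptors for the splanchnic signal were limited to a few subunits. Of 15 nicotinic receptor subunits, the ligand-gated channels of the nerve-to-chromaffin synapse, 4 were at the floor on all 3 arrays: Chrna7 (9.40, 11.64 and 11.45), Chrna3 (8.35, 10.09 and 9.80), Chrnb4 (7.62, 8.03 and 8.58) and Chrnb2 (7.36, 7.52 and 7.36). Sham 1 was the lowest array for Chrna7, Chrna3 and Chrnb4. Chrna5 was close to the floor at 3.70, 3.95 and 4.42, and the muscle-type subunits Chrna1, Chrnd, Chrne and Chrng were below it. Of 3 muscarinic receptors, Chrm1 (4.46, 3.60 and 4.14) crossed the floor on 2 arrays, which makes 1 of 3 without sham 2, and Chrm3 and Chrm4 did not. No adrenergic or dopamine receptor among the 6 measured of 14 listed reached the floor, the highest being Adra2c at 3.74 ± 0.04; the other 8 were not analysed here.

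Peptide and hormone receptors were led by that for angiotensin. The type 2 receptor Agtr2 had a mean of 12.33 ± 1.12, and the type 1 receptor Agtr1a 8.71, 9.78 and 10.11, both lowest in sham 1. The PACAP receptor Adcyap1r1 (11.12 ± 0.43) was also high, and its ligand gene Adcyap1 was below the floor. The neurturin receptor Gfra2 (10.12 ± 0.74), the oestrogen-binding receptor Gper1 (9.97 ± 0.12), the glucocorticoid receptor Nr3c1 (9.84, 10.23 and 9.93) and the tyrosine kinase Ret (6.98 ± 0.14) were at the floor on all 3 arrays. Of 31 measured receptors of this list, 14 were so, 4 on some arrays and 13 on none. Of the opioid receptors, only the nociceptin receptor Oprl1 (5.73, 8.56 and 8.57) reached the floor, and the classical Oprd1, Oprk1 and Oprm1 did not.

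Ionotropic glutamate receptors were more widely measured than those for GABA or serotonin. Of 16 subunits, 6 were at the floor on all 3 arrays, against 1 of 15 GABA-A receptor subunits and 1 of 13 serotonin receptors, each under the background of 51.0%. Without sham 1 the serotonin count was 2, with Htr1b at 3.68, 7.29 and 7.08. The AMPA receptor subunits Gria2 (9.90, 10.13 and 10.25) and Gria3 (8.97, 9.25 and 9.30) were the highest, followed by Grik2 (8.09 ± 0.06) and Gria4 (7.42 ± 0.14). Of the metabotropic receptors, Grm7 (8.35 ± 0.44) alone of 6 was at the floor. Glrb, the beta subunit of the glycine receptor, measured 11.19 ± 0.11.

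Voltage-gated channels, which carry the action potentials and the calcium entry of these cells, differed by type in the share of genes at the floor. Of 16 calcium channel genes of the list, 6 were at the floor on all 3 arrays (37.5%, under the background of 51.0%). The pore subunits were led by the N-type Cacna1b (9.78 ± 0.26), the L-type Cacna1d (8.62 ± 0.37) and the L-type Cacna1c (5.66 ± 0.29), whereas the P/Q-type Cacna1a (4.12, 3.61 and 3.82) was at the floor in sham 1 only and the T-type Cacna1h (3.76) and Cacna1g (1.98) were below it. The auxiliary subunit Cacna2d1 was the highest calcium channel gene (11.25 ± 0.62). Of 11 sodium channel genes 8 were at the floor on all 3 arrays (72.7%, over the background). Scn3a (8.87 ± 0.21), Scn3b (8.24 ± 0.47), Scn2b (8.13 ± 0.42) and Scn9a (7.67 ± 0.09) were among the higher ones. Of 77 potassium channel genes 26 were at the floor on all 3 arrays (33.8%, under the 51.0% of all genes). They were led by the background channel Kcnk2 (11.33 ± 0.64) and the large-conductance calcium-activated channel Kcnma1 (10.20 ± 0.55). Connexin 36 (Gjd2, 8.65, 8.68 and 8.97), which forms electrical junctions, was steady across animals.

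In the cAMP pathway downstream of these receptors, protein kinase A and adenylyl cyclase genes were mostly at the floor (background 51.0%). All 6 subunits of protein kinase A were at the floor on all 3 arrays, with Prkar1b at 12.52 ± 0.50 and Prkaca at 12.18 ± 0.07, as were 8 of 10 adenylyl cyclases, led by Adcy6 (9.41 ± 0.35). Gnas, the stimulatory alpha subunit, was at 12.88 ± 0.09 and the gamma subunit Gng4 at 12.75 ± 0.06. Of 21 phosphodiesterases, which break the second messenger down, 11 were at the floor on all 3 arrays. That share (52.4%) was near the background of 51.0%.

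Genes of general cell function were mostly at the floor, and ribosomal proteins were the most frequent of these families among the 100 highest genes. Of 46 cytosolic ribosomal proteins, 41 were at the floor on all 3 arrays, with a median of 12.17, and 11 were among the 100 highest and 32 among the 500 highest genes. Complex I of the respiratory chain had 33 of 35 subunits at the floor on all 3 arrays, complex III 9 of 9, ATP synthase 17 of 17 and cytochrome oxidase 9 of 15. The proteasome had 38 of 42, translation factors 43 of 45 and heat shock proteins 19 of 26. All 14 measured glycolytic genes were at the floor on all 3 arrays, led by Pgk1 (12.19 ± 0.27), as were all 11 antioxidant enzymes, led by Sod1 (13.42 ± 0.18). In the endoplasmic reticulum, which folds secreted proteins, 14 of 15 chaperone and stress genes were so, with Hspa5 at 13.29 ± 0.55 and Hsp90b1 at 12.87 ± 0.41.

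Imprinted genes were another group with high members. Of 17 measured, 13 were at the floor on all 3 arrays, and beside Ndn and Meg3 the highest were Gnas, Nap1l5 (12.82 ± 0.20), Peg3 (12.08 ± 0.33) and Dlk1 (12.26, 11.78 and 11.41). Cdkn1c, Peg10, Snrpn and Zim1 were below the floor. Among 14 genes in which inherited variants predispose to pheochromocytoma, the tumour of chromaffin cells, 11 were at the floor on all 3 arrays, from Mdh2 (12.78 ± 0.37) and Epas1 to Ret, Vhl was so on 2, and Max (3.83) and Nf1 (3.39) were below it. Cell division genes were low, with 5 of 18 at the floor on all 3 arrays and the kinase Cdk1 at 2.29, and the highest, Pcna, at 7.92 ± 0.83.

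**Figure D4:**
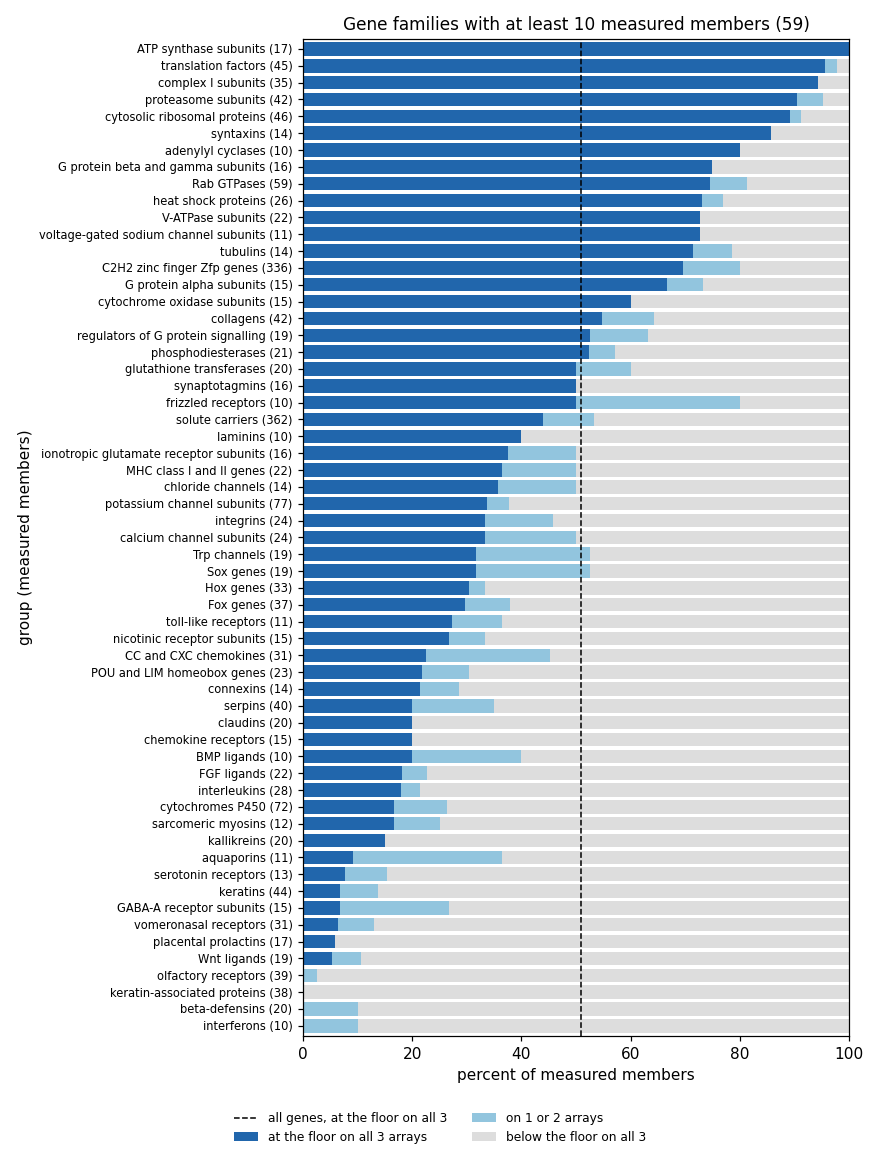
Gene families against the floor, for families with at least 10 measured genes. Each bar gives the percent of a family's genes (their number is in brackets) at log2 4 or more on all 3 sham arrays, on 1 or 2 and on none, and the dashed line is the 51.0% of all genes; ATP synthase reaches 100%, and no olfactory receptor, keratin-associated, beta-defensin or interferon gene was at the floor on all 3 arrays.

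Families known from sensory and surface tissues were nearly all below the floor. Of 39 olfactory receptor genes, none was at the floor on all 3 arrays and Olfr75-ps1 was on 1, of 38 keratin-associated proteins none on any, and of 31 vomeronasal receptors 2 on all 3, Vmn2r29 (5.37, 5.25 and 5.46) and Vmn1r44 (4.85, 4.48 and 4.51). Of 20 beta-defensins, 10 interferons, 8 UDP glucuronosyltransferases and 7 photoreceptor genes, none was at the floor on all 3 arrays, and without sham 2 the interferon count was 1 (Ifnz). Single members still stood out, such as the placental hormone gene Prl8a2 (7.09, 6.77 and 8.03) of 17 placental prolactins. Hox genes, which set position along the body, were intermediate at 10 of 33, led by Hoxd8 (8.76 ± 0.71), Hoxa5 (8.64 ± 0.36), Hoxc8 (8.07 ± 0.21) and Hoxc4 (7.62 ± 0.22).

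Markers of the other cells that dissected medulla can hold were measured beside the chromaffin genes; in bulk tissue, fewer cells of a type and less RNA per cell cannot be told apart. Genes of the glia and Schwann cell list were at the floor on all 3 arrays for 10 of 11. The highest were the adhesion genes Ncam1 (11.12 ± 0.29) and L1cam (10.45 ± 0.39). Fabp7 (9.31 ± 0.39), Erbb3 (8.78 ± 0.42), S100b (6.91 ± 0.38) and Sox10 (5.50 ± 0.22) were lower. The glial marker Gfap (1.81, 4.27 and 4.89) was at the floor in sham 2 and sham 3 only. Fibroblast and matrix genes were at the floor on all 3 arrays for 10 of 12, with Mgp at 11.32 ± 0.44 and Dcn at 8.71, 10.89 and 10.61. Of 12 endothelial genes 6 were so, with Plvap (8.28 ± 0.06) and Vwf (7.55 ± 0.62), although the defining Pecam1 (2.63), Cdh5 (3.02) and Kdr (2.83) were below the floor on every array. Of 10 smooth muscle and pericyte genes 4 were so, with Rgs5 at 11.32 ± 0.69. Of 14 genes of ganglion neurons and nerve fibres 10 were at the floor on all 3 arrays. Among them were Snap25, Map2 (10.08 ± 0.45), Uchl1 (9.69 ± 0.95) and Nefh (8.09 ± 0.04), some of which chromaffin cells also express. In the same list, the markers of cholinergic nerve endings, Chat (1.82), Slc18a3 (1.81) and Slc5a7 (2.05), were below the floor on all 3 arrays. The arrays read RNA and not protein, so these values do not show whether nerve endings were present.

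The measured blood, fat, liver, kidney and muscle genes were mostly below the floor. Only 4 of 8 listed red blood cell genes were measured, and the rest of that list was not analysed here. None of the 4 reached the floor, including Hba-a1 (2.55) and Hbb-b2 (3.63). None of the 8 kidney, 10 muscle or 7 mast cell genes reached it on all 3 arrays, with Kap, Myh6 and Hdc crossing it on some. Without sham 2, Myh6 and Hdc made the muscle and mast cell counts 1 each. Of 6 adipocyte genes, Fabp4 (12.05, 10.77 and 10.12) was high while Adipoq (3.48, 2.08 and 2.07) and Lep were below the floor; Fabp4 is also expressed in endothelium and macrophages. Ttr (6.99 ± 0.78) alone of 8 hepatocyte genes was at the floor on all 3 arrays, and Alb measured 2.31, 5.98 and 5.12, which made the count 2 without sham 1. The pancreatic elastase gene Cela1 measured 7.85, 9.60 and 9.69 while Ins2, Gcg and Cpa1 were below the floor.

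Signal of the adrenal cortex differed most between the animals. Cyp11a1, the side-chain cleavage enzyme that starts steroid synthesis, measured 4.36, 4.55 and 11.10, and had the largest SD (3.83) of all genes with a mean of 6 or more. Cyp21a1 measured 6.93, 4.51 and 9.81, the 11-beta-hydroxylase gene Cyp11b1 6.91 and 5.61 in sham 1 and sham 2 with the highest value in sham 3, and the cholesterol transport protein Star 8.88, 6.56 and 10.81. Sham 3 was the highest and sham 2 the lowest array for Cyp21a1, Cyp11b1, Star, Hsd3b1 (9.25, 8.30 and 12.37) and Scarb1 (10.09, 8.95 and 11.76). Of 9 cortex genes at the floor on at least 1 array, 9 were higher in sham 3 than in sham 2, by a median of 4.08, and 9 were higher than in sham 1, by 2.88; of the 10794 genes at the floor on at least 1 array, 47.4% and 71.8% were higher. The list's median was 6.67 over the 3 arrays and 5.72 without sham 3. Nr5a1 (2.71), Nr0b1 (2.46), the zona glomerulosa gene Cyp11b2 (2.06) and Cyp17a1 (2.04) were below the floor on every array, sham 3 included.

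**Figure D5:**
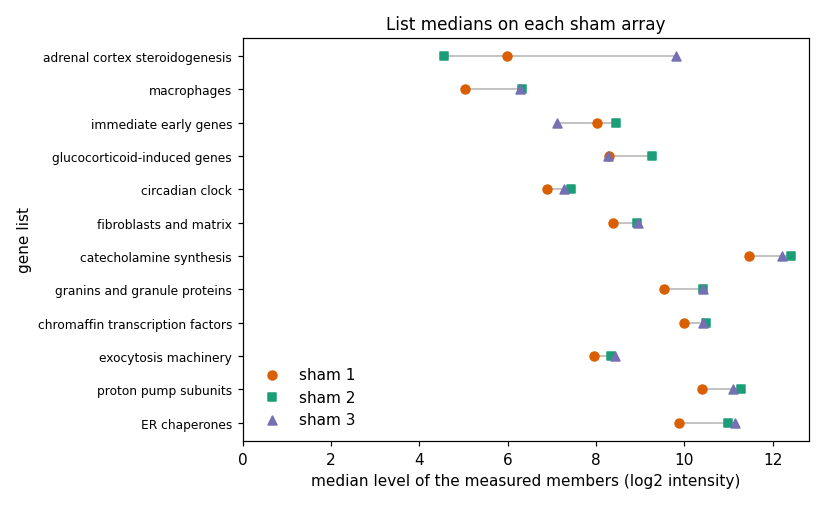
Median level of 12 gene lists on each array. Each row is a list, and the markers are the median log2 intensity of its measured genes in sham 1, sham 2 and sham 3; the cortex list is spread most, with 4.55 in sham 2 and 9.81 in sham 3, and catecholamine synthesis genes lie above 11 on all 3 arrays.

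Activity-dependent genes ran the other way in sham 3. Of 19 immediate early genes at the floor on at least 1 array, 15 were lower in sham 3 than in sham 2, with a median difference of -1.09, and 13 were lower than in sham 1. Egr2 measured 10.68, 11.04 and 8.12, Egr3 9.16, 7.93 and 4.66, Nr4a1 10.83, 10.15 and 7.31, and Nr4a2 10.85, 8.43 and 7.07. Fos, the member with the highest signal, was lowest in sham 1, at 11.42, 13.37 and 12.36, so the genes did not share one order. Junb, Fosb, Arc, Npas4 and Fosl1 were below the floor on all 3 arrays. Of 14 glucocorticoid-induced genes 11 were lower in sham 3 than in sham 2, such as Klf9 (13.02, 12.80 and 11.86), Nfkbia (13.12, 12.52 and 11.74) and Mt1 (12.90, 12.59 and 11.75). The other 3 were higher in sham 3 than in sham 2, namely Fkbp5 (8.48, 10.19 and 10.29), Zbtb16 (9.47, 6.58 and 7.79) and Cdkn1a (6.68, 5.89 and 6.28). Against sham 1, 6 genes of the list were higher and 8 lower in sham 3, with a median difference of -0.66. Only 2 exceeded the median difference of 0.54 over all genes at the floor on at least 1 array. Of the 10794 genes at the floor on at least 1 array, 47.4% were higher in sham 3 than in sham 2 and 71.8% higher than in sham 1. The cortex genes went the opposite way, sham 3 being their highest array, and their part in these differences was not tested.

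The clock genes also differed between animals. Dbp, a clock output gene, measured 11.56, 12.58 and 10.60, Per1 7.87, 6.71 and 5.06, and Arntl, which peaks in antiphase to them, 4.75, 5.26 and 7.07. Sham 3 was the lowest array for Dbp and Per1 and the highest for Arntl. Of 12 clock genes at the floor, 9 were lower in sham 3 than in sham 2 (47.4% of the 10794 genes were higher). Against sham 1, 7 were higher in sham 3, with a median difference of 0.37 over the list. Of the 10794 genes, 71.8% were higher in that comparison, with a median difference of 0.54, which 4 of the 12 clock genes exceeded. The labels give no time of day.

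Macrophage genes at the floor were lower in sham 1 than in the others, but this was not particular to them. Of 11 at the floor on at least 1 array, 11 were higher in sham 2 than in sham 1, by a median of 1.55, and 11 were higher in sham 3, by 1.20, against 71.6% and 71.8% of the 10794 genes. Of the 11 genes, 8 exceeded the median shift of those genes in each of the 2 comparisons. Of 11 fibroblast and matrix genes at the floor on at least 1 array, 10 were higher and 1 lower in sham 2 than in sham 1. In sham 3, 9 of them were higher and 2 lower than in sham 1. The median shift was exceeded by 7 and 8 of these genes. C1qa measured 2.29, 6.55 and 6.46, Cd68 2.33, 4.41 and 4.95, and Lyz2 8.38, 10.40 and 10.54, while the receptor Csf1r was within a narrow range (9.63 ± 0.17). The control probe sets of RNA length moved with this difference, and their part in it was not tested.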

How the data were processed

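Adrenal medulla RNA of 3 sham-operated mice was amplified from the 3′ end in 2 cycles and hybridised to 1 array per animal, per the labels' protocols. The deposited series table gives a linear intensity for each probe set on each array. The submitters' processing notes name GCRMA, which corrects the background and summarises probes; no version or setting was found with it. The deposited intensities were transformed to log2 without further scaling. Of 45101 probe sets, 64 controls were left out. GEO's platform annotation gave 1 symbol for 34945, several for 932 and none for 9160; Entrez identifiers of 34741 were found in a RefSeq table of GRCm38.p6, and 0 symbols changed. The 34945 probe sets read 18193 genes, 9183 of them by 1 probe set and 9010 by several, of which the one with the highest sham mean was kept. Keeping the highest favours probe sets with cross-binding probes. A gene counted as at the floor at log2 4 or more.

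The text names the 40 highest genes as far as they are not clone or predicted names, any member of lists with up to 20 measured genes, the 4 highest and the members below the floor of longer lists, the 4 highest of each family, the 20 genes with the largest SD among those with a mean of 6 or more and the 10 steadiest of the 1000 highest. Others (Hand1, Cacna1a, Scn9a, Fabp7, Chrm1 and further single members, and second probe sets) were chosen after their values were seen. The 40 lists and 78 families, matched by symbol, were chosen with earlier results of these data known, and a few family patterns were tidied after the values were seen to drop antisense and unrelated genes. Precision is limited by the number of arrays. The counts were checked on simulated data. Alternatives were other floors, probe set rules, scalings and each array left out. Python 3.11.15, pandas 2.3.3, numpy 2.4.6 and matplotlib 3.10.9 were used.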

Additional observations from a re-analysis of the deposited data

How the results depend on the processing

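Levels depended most on the choice of probe set, and counts on the floor. Averaging all probe sets of a gene gave a chromaffin marker median of 13.42 against 14.13 and kept 19 of the 50 highest genes, and 358 of 568 named levels moved by more than their SD, with a median drop of 1.47 over all of them. Leaving out suffixed probe sets kept 12 of the 50; 10 of the 50 have no other probe set, and 129 of 494 named levels moved. By floor, 4727 genes were below it on all 3 arrays at log2 3 (main 7399), and 6011 were at it on all 3 at log2 6 (main 9270). Counts at the floor moved by over 1.5 times for 37 of 78 families at log2 3 and 35 at log2 6, against 19 with probe sets averaged and 12 without suffixed ones, and for 16 and 7 of 40 lists against 4 and 6. Leaving out each array in turn gave 9358 to 9910 genes at the floor, 7466 to 7885 below it, a chromaffin median of 14.06 to 14.17, a cortex median of 5.72 to 7.73, and 42 to 49 of the 50 highest genes, the fewest without sham 1. Quantile normalization moved 0 named levels and a shift to 1 median 18. No paired analysis was possible because only the sham group was described and its values came from no test. Intensities give no depth, and signals near the floor cannot be told from background.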

Other observations

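Some of the strongest signals carry no single gene name. Of 9160 probe sets without a symbol, 1398 (15.3%) were at the floor on all 3 arrays, 40 had a mean of 12 or more and the highest was at 14.26. Of 932 with several symbols, 451 (48.4%) were at the floor, 80 were at 12 or more and the highest was at 15.19, above the highest named gene (Rps29, 15.08). Of the 34945 with 1 symbol, 39.6% were at the floor on all 3 arrays.

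Among genes with a mean of 6 or more, the 20 with the largest SD fell into several patterns. Bzw2 (12.22, 8.25 and 6.12), Ntmt1 (9.91, 6.49 and 4.24) and the carbonic anhydrase gene Car3 (9.71, 6.68 and 4.42) were highest in sham 1 and lowest in sham 3. Dld (3.66, 8.97 and 8.97), a subunit of mitochondrial dehydrogenase complexes, and Sae1 (4.45, 9.57 and 9.47), of the SUMO pathway, were low in sham 1 only. Hao2 (8.17, 6.27 and 11.38) was highest in sham 3 and lowest in sham 2, as were Cyp21a1 and Cyp11b1. At the other end, Rnf187 measured 12.50, 12.51 and 12.52, and Tox3, a chromatin protein, 10.66, 10.65 and 10.71.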
